A study of Mus musculus with 23 samples.

Results

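Lypd6, Sostdc1, Wif1, Dkk2, Dkk3, Sfrp1, Sfrp2, Sfrp4 and Axin2 encode modulators of Wnt and bone morphogenetic protein (BMP) signals. These 9 of the 19938 genes tested were chosen from results of the same arrays, by their symbols and their known roles. The differences of Lypd6 between the genotypes at 0 h and 15 min, and of Sostdc1 at 24 h, were known when the genes were chosen, so they are described here without a test. Every one of the 9 genes had a single entry on the array, and none was removed by a filter on low values.

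Transcript levels in the ear pinna of female mice aged 4 weeks were read on Mouse Gene 1.0 ST microarrays. The cub mice (Rhbdf2cub/cub animals of the B6.Cg-Rhbdf2cub/J strain; 11 arrays) carry a spontaneous mutation of Rhbdf2 in both copies, and the wild-type mice (C57BL/6J, Rhbdf2+/+; 12 arrays) do not. Rhbdf2 encodes iRhom2, a membrane protein that governs the maturation of the sheddase ADAM17. Ears were punched through with a hole of 2 mm, and the 1-mm rim around it was collected with a 3-mm biopsy punch after 15 min, 2 h or 24 h. Ears at 0 h were unwounded, and no hole or biopsy size is recorded for them, so rims and 0 h ears may differ in how much tissue was sampled and from where. There were 3 arrays in each of the 8 groups, labelled as biological replicates, apart from cub at 15 min with 2.

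Wnt proteins bind Frizzled receptors together with the co-receptors LRP5 and LRP6 and thereby keep beta-catenin from being degraded. Secreted inhibitors act at separate steps: WIF1 and the SFRP proteins bind Wnts outside the cell, while DKK2 and SOSTDC1 occupy LRP co-receptors. SOSTDC1 also binds BMPs, the ligands that signal through SMAD proteins, and AXIN2 is a scaffold of the complex that degrades beta-catenin inside the cell. In skin, Wnt and BMP signals together govern the growth cycle of hair follicles, and several of their inhibitors are made by dermal cells and by follicle cells. Because the arrays measured whole tissue, fewer cells of a type and less RNA per cell cannot be told apart.

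Start-site windows from RefSeq (assembly GRCm38.p6) were held for 5 of the genes: Lypd6, Wif1, Dkk2, Sfrp2 and Axin2. Those of Axin2 and Dkk2 are shown because Axin2 is a standard transcriptional target of the Wnt pathway that it restrains, and because Dkk2 was the gene among the 5 with a match to the core searched for. Each line gives the 250 bases before the start site of the window, both genes lying on the plus strand. They lie at chr11:108920099-108920348 for Axin2 and at chr3:132085042-132085291 for Dkk2. The Axin2 gene span begins at chr11:108917828, so its window lies inside that span, and the bases before the span were not searched. Capitals mark a match to the core recognised by TCF/LEF factors, searched as ACAAAG or TCAAAG on either strand and so read as CTTTGT or CTTTGA on the other.
Axin2: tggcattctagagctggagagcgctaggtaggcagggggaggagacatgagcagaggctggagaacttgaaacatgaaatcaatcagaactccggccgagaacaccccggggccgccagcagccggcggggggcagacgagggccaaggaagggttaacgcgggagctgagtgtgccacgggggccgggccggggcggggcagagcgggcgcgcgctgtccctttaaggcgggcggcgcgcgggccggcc
Dkk2: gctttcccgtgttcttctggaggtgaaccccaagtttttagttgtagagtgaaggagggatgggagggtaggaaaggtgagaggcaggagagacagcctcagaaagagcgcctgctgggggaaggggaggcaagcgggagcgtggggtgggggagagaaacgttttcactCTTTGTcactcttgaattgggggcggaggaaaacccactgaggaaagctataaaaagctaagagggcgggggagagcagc

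In windows of 300 bases, 250 before and 50 after the start, the core was present in 1 of the 5 member windows and in 31.2% of the 32851 windows of the whole table. The match in Dkk2 began at position −80 relative to the start site. A match describes letters only, and a window without one says only that these letters are not in it. The windows of Axin2 and Sfrp2 lie inside the spans given for these genes, so they do not cover the bases before those spans.

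The authors' values were log2 RMA values, a summary of background-corrected and quantile-normalized probe signals, with array medians from 6.37 to 6.46. Within a group, arrays correlated across genes with r of at least 0.9956. Rhbdf2 itself measured 9.07 to 9.14 in cub ears and 8.64 to 8.76 in wild-type ears at 0 h. At 24 h it measured 8.20 to 8.45 in cub rims and 8.57 to 9.01 in wild-type rims. Where its probes lie relative to the mutation was not examined, so these levels do not check the labels. All differences below are log2 differences with their standard errors, and adjusted p values come from limma's moderated test with Benjamini-Hochberg adjustment over all 19938 genes, called at 0.05.

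At 24 h after the punch most of the 9 genes were lower than at 2 h in both genotypes, Sfrp1 being the exception in both and Sfrp4 in wild type. In cub rims 8 of 9 were lower at 24 h than at 2 h, against 23.4% of all genes. In wild-type rims 7 of 9 were lower, against 20.4% of all genes. The genes were chosen from results of the same arrays. Both counts include Sostdc1, whose gap between the genotypes at 24 h was known at that choice. The median difference of the members between 24 h and 2 h was −0.93 in cub rims, beside 0.01 for all genes tested. In wild-type rims that median was −0.62, beside −0.02 for all genes. Both times were rims of the same size, so this comparison does not depend on the unwounded tissue. The plot of each array shows the step between 2 h and 24 h.

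**Figure D1:**
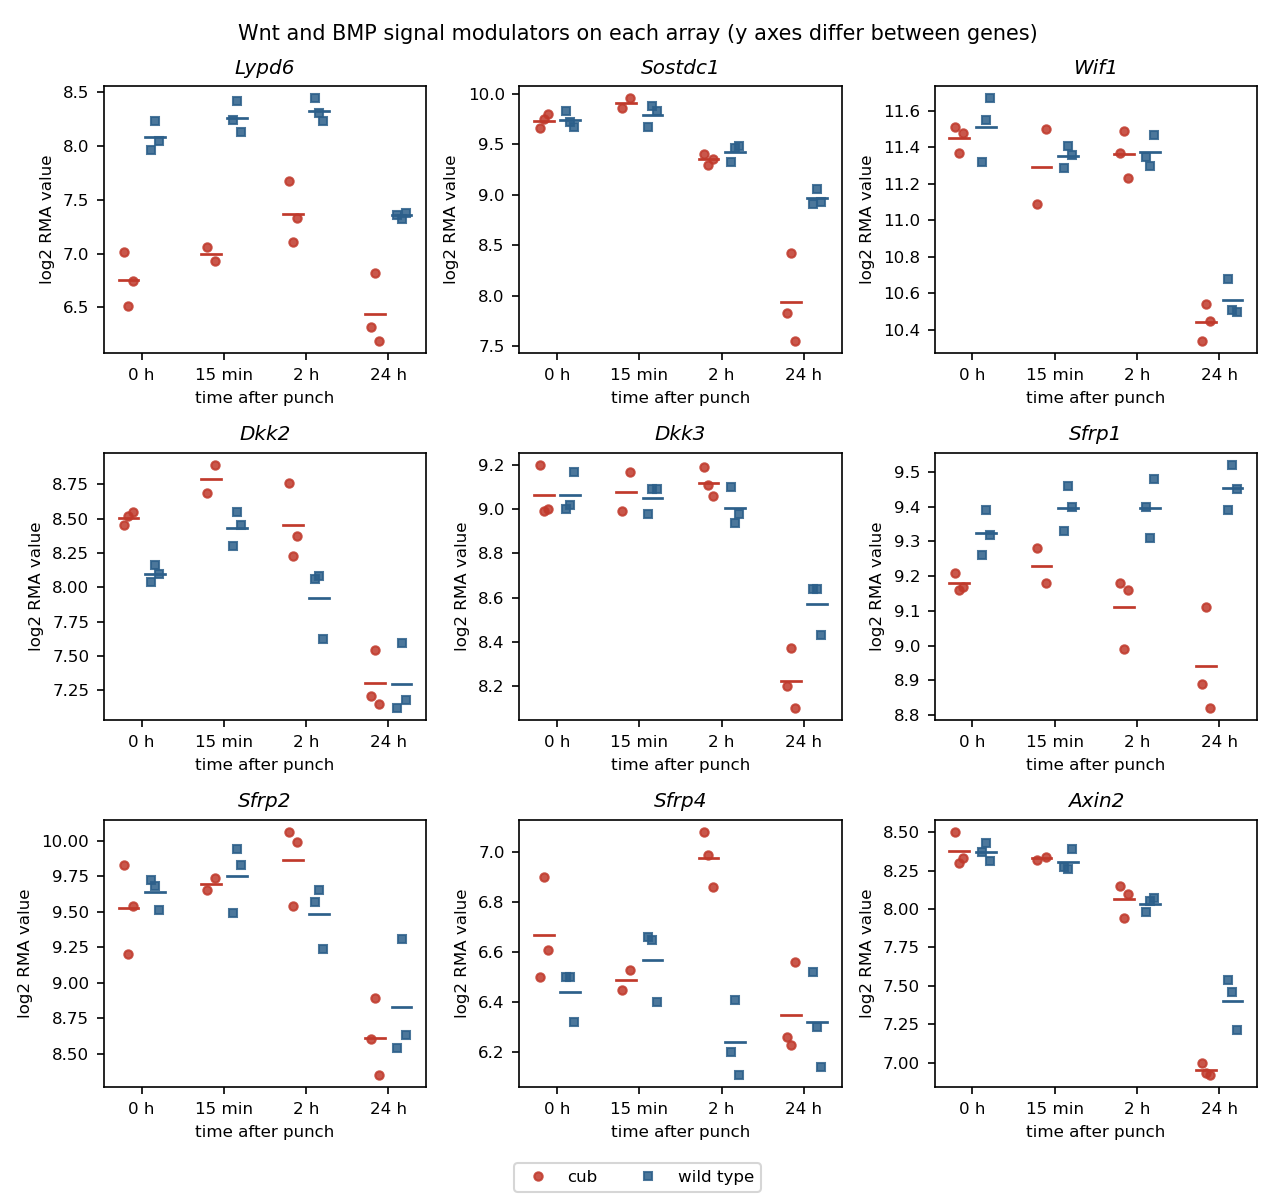
Log2 RMA value (y axis, its range differing between panels) of each gene on each array by time after the punch (x axis), with cub as circles, wild type as squares and group means as short lines. Axin2 lies at 6.92 to 7.0 in cub rims and 7.21 to 7.54 in wild-type rims at 24 h, and Lypd6 and Sfrp1 are lower on every cub array than on every wild-type array of the same time.

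Sostdc1 (chr12:36314169-36318452), an inhibitor of both BMP and Wnt signals that is made by follicle epithelium, differed between the genotypes at 24 h. It then measured 7.83, 8.42 and 7.55 in cub rims, against 8.91, 9.06 and 8.93 in wild-type rims. Every cub array at 24 h lay below every wild-type array, a difference of −1.03 ± 0.13 that was known when the genes were chosen. At 2 h the groups overlapped, with 9.41, 9.30 and 9.36 in cub rims and 9.33, 9.47 and 9.48 in wild-type rims. The 0 h values were 9.66, 9.75 and 9.80 in cub ears and 9.83, 9.72 and 9.67 in wild-type ears, also with overlap.

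The level of Sostdc1 at 24 h was below that at 2 h by a log2 difference of −1.42 ± 0.13 in cub rims (2.68-fold, adjusted p = 1.09e-08). In wild-type rims the same difference was −0.46 ± 0.13 (1.38-fold, adjusted p = 0.00628). Neither genotype had overlapping arrays between these times. Both tests use the 24 h arrays whose genotype gap was known when the gene was chosen, so they are not independent of that choice. The change from 0 h to 24 h was −1.80 ± 0.13 in cub and −0.77 ± 0.13 in wild type, and it differed between the genotypes by −1.03 ± 0.18. That difference contains the known gap at 24 h and is given without a p. Leaving out 1 cub array at a time, the gap at 24 h ran from −1.28 without replicate 2 to −0.84 without replicate 3.

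Lypd6 (chr2:50066400-50193569) encodes a membrane-anchored protein of the Ly6 family that, in zebrafish, enhances Wnt signalling at LRP6. In the cub mice it was low at each time, with no overlap between the genotypes. At 0 h it measured 7.01, 6.51 and 6.75 in cub ears, against 7.96, 8.23 and 8.04 in wild-type ears, a difference of −1.32 ± 0.15 given without a test. At 15 min the cub rims had 7.06 and 6.93 and the wild-type rims 8.24, 8.41 and 8.13, a difference of −1.27 ± 0.16, likewise without a test.

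The later times are on other arrays than those 2 known differences. At 2 h Lypd6 measured 7.67, 7.11 and 7.33 in cub rims, against 8.44, 8.30 and 8.23 in wild-type rims (−0.95 ± 0.15, 1.94-fold lower in cub, adjusted p = 0.000737). At 24 h the values were 6.32, 6.82 and 6.19 in cub rims and 7.36, 7.32 and 7.38 in wild-type rims (−0.91 ± 0.15, 1.88-fold lower in cub, adjusted p = 0.000893). The arrays of the genotypes did not overlap at either time, and both calls held under every alternative tried.

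Ordered by its group mean, Lypd6 was highest in wild type at 2 h, 15 min and 0 h, then in cub at 2 h, in wild type at 24 h, and in cub at 15 min, 0 h and 24 h. Neighbouring groups in this order overlapped in their arrays, except between wild type at 0 h and cub at 2 h and between wild type at 24 h and cub at 15 min. Between 2 h and 24 h it fell by 0.93 ± 0.15 in cub rims (adjusted p = 1.88e-05) and by 0.97 ± 0.15 in wild-type rims (adjusted p = 1.16e-05). Lypd6 was the only member called higher at 2 h than at 0 h, by 0.61 ± 0.15 in cub (adjusted p = 0.00723), against 0.25 ± 0.15 in wild type, which did not pass. The cub test uses the 0 h arrays on which Lypd6 was known to be low when the gene was chosen, so it is not independent of that choice. The change to 2 h did not pass a test of its difference between the genotypes (0.37 ± 0.21, adjusted p = 0.575). Without cub 2 h replicate 1, the 2 h change of Lypd6 in cub had an adjusted p of 0.0618.

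Wif1 (chr10:121034004-121100642), which binds Wnts directly, fell late in both genotypes, whose arrays overlapped at every time. At 24 h it measured 10.34, 10.54 and 10.45 in cub rims and 10.68, 10.51 and 10.50 in wild-type rims, with overlap. At 2 h it measured 11.37, 11.49 and 11.23 in cub rims and 11.35, 11.30 and 11.47 in wild-type rims. It fell between those times by 0.92 ± 0.10 in cub (adjusted p = 1.05e-07) and by 0.81 ± 0.10 in wild type (adjusted p = 6.66e-07). Between the genotypes no time passed the test, the largest difference being −0.12 ± 0.10 at 24 h (adjusted p = 0.599).

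Sfrp1 (chr8:23411383-23449632), a secreted protein with a Frizzled-like Wnt-binding domain, was lower on every cub array than on every wild-type array of the same time. At 24 h it measured 8.89, 9.11 and 8.82 in cub rims, against 9.39, 9.52 and 9.45 in wild-type rims (−0.51 ± 0.07, 1.43-fold lower in cub, adjusted p = 0.000212). The 2 h values were 9.18, 8.99 and 9.16 in cub rims and 9.40, 9.31 and 9.48 in wild-type rims (−0.29 ± 0.07, adjusted p = 0.0239). At 0 h it measured 9.21, 9.16 and 9.17 in cub ears and 9.26, 9.39 and 9.32 in wild-type ears, a difference of −0.14 ± 0.07 that did not pass (adjusted p = 0.296). Nor did the difference at 15 min, −0.17 ± 0.08 (adjusted p = 0.219).

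Sfrp1 also had the smallest difference of the members between 24 h and 2 h in each genotype. Its 24 h level differed from its 2 h level by −0.17 ± 0.07 in cub (adjusted p = 0.0625) and 0.06 ± 0.07 in wild type (adjusted p = 0.599). Against 0 h, it was lower at 24 h in cub (−0.24 ± 0.07, adjusted p = 0.00808) and did not pass in wild type (0.13 ± 0.07, adjusted p = 0.162). The difference between those changes was −0.37 ± 0.10 and did not pass (adjusted p = 0.0876). The call at 2 h was lost with only the arrays compared, without wild type 2 h replicate 1, without wild type 2 h replicate 3 and without cub 2 h replicate 2, with an adjusted p of up to 0.126 over all alternatives. The 24 h change against 0 h in cub had an adjusted p of 0.0628 without cub 24 h replicate 3.

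Lypd6 and Sfrp1 were the 2 members whose arrays lay apart between the genotypes in the same direction at each of the 4 times, which held for 1.18% of all genes. The gaps of Lypd6 at the first 2 of these times were known when the genes were chosen. Its separation is therefore not independent of that choice, and nothing is read from setting Lypd6 beside the share of all genes.

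Sfrp4 (chr13:19623175-19632825), a relative of Sfrp1 with the same type of Wnt-binding domain, differed between the genotypes at 2 h. It then measured 7.08, 6.99 and 6.86 in cub rims, against 6.20, 6.41 and 6.11 in wild-type rims (0.74 ± 0.12, 1.67-fold higher in cub, adjusted p = 0.00084). At 24 h the groups overlapped, with 6.26, 6.23 and 6.56 in cub and 6.52, 6.30 and 6.14 in wild type. The 0 h groups met at a shared value, with 6.50, 6.90 and 6.61 in cub ears and 6.50, 6.50 and 6.32 in wild-type ears (0.23 ± 0.12, adjusted p = 0.297). The higher level at 2 h in cub held under every alternative tried. Sfrp4 had the lowest mean of the members, 6.51 over the 23 arrays, near the array medians of 6.37 to 6.46. Whether the change from 0 h to 2 h differed between the genotypes did not pass (0.51 ± 0.16, adjusted p = 0.246).

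Between 2 h and 24 h Sfrp4 fell by 0.63 ± 0.12 in cub (adjusted p = 0.00011). In wild type it differed by 0.08 ± 0.12, which did not pass (adjusted p = 0.651). Against 0 h it fell at 24 h in cub by 0.32 ± 0.12 (adjusted p = 0.0263), a call lost with array weights, with only the arrays compared, and without cub 24 h replicate 1, cub 24 h replicate 2 or cub 0 h replicate 2. Its adjusted p over all alternatives reached 0.183. In wild type the difference was −0.12 ± 0.12 (adjusted p = 0.46).

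Sfrp2 (chr3:83765750-83774314), the third of these Wnt-binding proteins, varied more between arrays of a group. At 2 h it measured 10.06, 9.54 and 9.99 in cub rims and 9.57, 9.65 and 9.24 in wild-type rims (0.38 ± 0.19, adjusted p = 0.332). At 24 h it measured 8.60, 8.89 and 8.35 in cub rims and 8.54, 9.31 and 8.63 in wild-type rims, with overlap. The fall of Sfrp2 between these times was 1.25 ± 0.19 in cub, a log2 difference of −1.25 (adjusted p = 1.32e-05). In wild type it fell by 0.66 ± 0.19 (adjusted p = 0.00755), with an adjusted p of 0.057 without wild type 24 h replicate 1. No comparison of Sfrp2 between the genotypes passed the test.

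Dkk2 (chr3:132085266-132180304), which binds LRP5 and LRP6, was higher on every cub array than on every wild-type array until 2 h, and overlapped at 24 h. At 0 h it measured 8.45, 8.52 and 8.55 in cub ears, against 8.04, 8.16 and 8.10 in wild-type ears. The 15 min values were 8.69 and 8.89 in cub rims and 8.30, 8.55 and 8.45 in wild-type rims. At 2 h it measured 8.76, 8.23 and 8.37 in cub rims, against 8.06, 8.08 and 7.62 in wild-type rims. The genotypes were thus separate at these 3 times, the closest arrays being those of 2 h and 15 min.

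Of these Dkk2 differences, that at 2 h passed the test (0.53 ± 0.14, 1.45-fold higher in cub, adjusted p = 0.0333). Those at 0 h (0.41 ± 0.14, adjusted p = 0.1) and at 15 min (0.36 ± 0.16, adjusted p = 0.188) did not. The 2 h call was lost with quantile normalization over the tested genes, with only the arrays compared in the fit, and without replicate 3 of wild type at 2 h or replicate 1 or 3 of cub at 2 h, with an adjusted p of up to 0.237 over all alternatives. At 24 h the values were 7.21, 7.54 and 7.15 in cub and 7.12, 7.59 and 7.18 in wild type, a difference of 0.00 ± 0.14 (adjusted p = 0.996). Dkk2 fell between 2 h and 24 h by 1.15 ± 0.14 in cub (adjusted p = 6.55e-07) and by 0.62 ± 0.14 in wild type (adjusted p = 0.00095).

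Dkk3 (chr7:112116019-112159482) belongs by sequence to the Dickkopf family, though its part in Wnt signalling is less settled than that of Dkk2. Its arrays overlapped between the genotypes until 2 h, when it measured 9.19, 9.11 and 9.06 in cub rims and 9.10, 8.94 and 8.98 in wild-type rims. At 24 h it measured 8.20, 8.37 and 8.10 in cub rims, against 8.64, 8.64 and 8.43 in wild-type rims (−0.35 ± 0.08, 1.27-fold lower in cub, adjusted p = 0.0135). The arrays at 24 h did not overlap. Dkk3 fell between 2 h and 24 h by 0.90 ± 0.08 in cub (adjusted p = 9.09e-09) and by 0.44 ± 0.08 in wild type (adjusted p = 0.000128). The call between the genotypes at 24 h was lost with only the arrays compared in the fit and without replicate 1 or 2 of wild type at 24 h or replicate 3 of cub at 24 h, with an adjusted p of up to 0.101 over all alternatives.

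Axin2 (chr11:108917828-108950783), whose transcript is induced by Wnt signalling and whose product restrains it, was the one member called lower at 2 h than at 0 h, in both genotypes. At 2 h it measured 8.15, 7.94 and 8.10 in cub rims, against 8.5, 8.30 and 8.33 in cub ears at 0 h (−0.31 ± 0.08, adjusted p = 0.00791). In wild type it measured 7.98, 8.05 and 8.07 at 2 h, against 8.37, 8.43 and 8.31 at 0 h (−0.34 ± 0.08, adjusted p = 0.00698). The arrays of 2 h and 0 h did not overlap in either genotype. The 2 h call in cub was lost without cub 2 h replicate 2 or cub 0 h replicate 1, with an adjusted p of up to 0.0598.

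At 24 h Axin2 was lower still, at 7.0, 6.93 and 6.92 in cub rims and 7.54, 7.46 and 7.21 in wild-type rims. The cub arrays all lay below the wild-type arrays (−0.45 ± 0.08, 1.37-fold lower in cub, adjusted p = 0.00121), a call kept under every alternative. Against 0 h, Axin2 fell at 24 h by 1.43 ± 0.08 in cub (2.69-fold, adjusted p = 1.51e-12) and by 0.97 ± 0.08 in wild type (1.95-fold, adjusted p = 1.02e-09). These changes differed between the genotypes by −0.46 ± 0.11 (adjusted p = 0.0409), a call lost in 17 of 31 alternatives, over which its adjusted p ranged from 0.00663 to 0.132. It was lost with only the arrays compared and without any 1 of the 6 arrays at 0 h, any 1 of the 3 cub arrays at 24 h, and replicate 1 or 2 of wild type at 24 h. It was also lost without replicate 1 or 2 of wild type at 15 min, replicate 1 or 2 of wild type at 2 h or replicate 3 of cub at 2 h, which share the estimate of the spread. Between 24 h and 2 h the difference was −1.11 ± 0.08 in cub and −0.63 ± 0.08 in wild type.

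**Figure D2:**
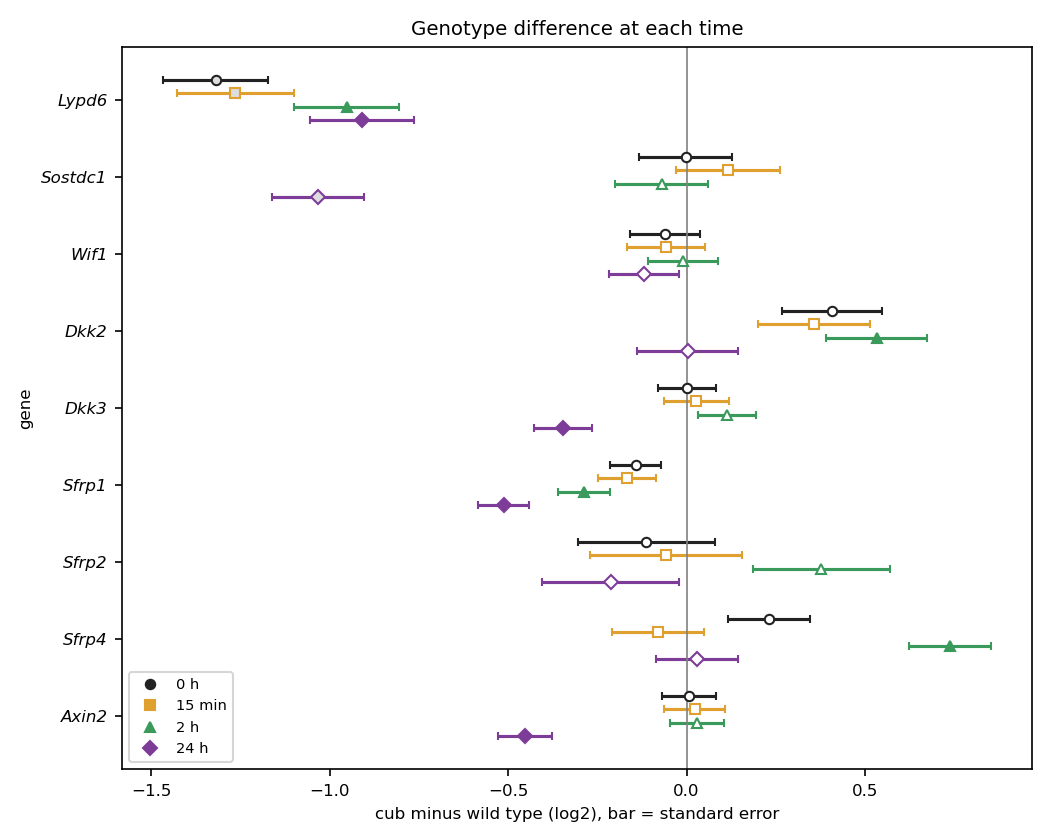
Log2 difference between cub and wild type (x axis) for each gene (y axis) at 0 h, 15 min, 2 h and 24 h, with bars for 1 standard error. Symbols in the full colour passed the test, open symbols did not, and the 3 with a grey filling are the known differences of Lypd6 and Sostdc1 that are shown without a test; at 24 h the differences of Lypd6, Dkk3, Sfrp1 and Axin2 lie between −0.91 and −0.35.

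The genotypes were compared at each time. At 0 h 1 of the 9 members was called, against 5.25% of all genes, and at 15 min it was again 1, against 3.45%. Both were Lypd6, whose differences at these times were known, so nothing is read from those counts. At 2 h 4 members were called, against 4.41% of all genes: Dkk2 and Sfrp4 were higher in cub and Lypd6 and Sfrp1 lower. At 24 h 5 were called lower in cub, Lypd6, Sostdc1, Dkk3, Sfrp1 and Axin2, against 3.44% of all genes, and Sostdc1 is the known one among them. The members' median difference between cub and wild type was 0.03 at 2 h and −0.35 at 24 h, beside 0.00 for all genes at both times. With only the arrays of the compared groups in the fit, 2 of 9 were called at 2 h, and 2 were called without wild type 2 h replicate 3.

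Averaged over the 4 times, 5 of the 9 members differed between cub and wild type, against 18.3% of all genes. Dkk2 (0.33 ± 0.07, adjusted p = 0.00339) and Sfrp4 (0.23 ± 0.06, adjusted p = 0.00964) were higher in cub, and Sfrp1 was lower (−0.28 ± 0.04, adjusted p = 2.99e-05). The averages of Lypd6 (−1.11 ± 0.08) and Sostdc1 (−0.25 ± 0.07) contain the differences that were known.

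Against unwounded ears, no member passed at 15 min in cub or in wild type, against 0.0251% of all genes in cub and 0.0351% in wild type. At an unadjusted p below 0.05, limma gave 0 members in cub and 1 in wild type, Dkk2 with a difference of 0.33 ± 0.14 (adjusted p = 0.47). At 2 h 2 members passed in cub, Lypd6 and Axin2, against 11.9% of all genes. In wild type 1 passed at 2 h, Axin2, against 7.97%. At 24 h 8 members were lower in cub, against 24.9% of all genes, with Lypd6 the one that did not pass (−0.31 ± 0.15, adjusted p = 0.0895). In wild type 7 were lower at 24 h, against 22.4%. Both counts at 24 h include Sostdc1, whose gap between the genotypes at that time was known when the genes were chosen. Every test of Lypd6 against 0 h uses the 0 h arrays on which its genotype gap was known. These tests are not independent of that choice, so nothing is read from the part of Lypd6 in these counts. The part of the sampling difference between rims and unwounded ears in these changes was not tested.

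The changes themselves were compared between the genotypes by an interaction term. For the change from 0 h to 2 h, 0 of 9 members passed, against 0.130% of all genes, and 1 member, Sfrp4, had an unadjusted p below 0.05 in limma. For the change from 0 h to 24 h, Sostdc1 and Axin2 were called lower in cub, against 0.747% of all genes. The Sostdc1 term is the known gap at 24 h over again, since its 0 h difference was 0.00, so nothing is read from its call. The differences between the genotypes in the step from 2 h to 24 h were not tested.

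**Figure D3:**
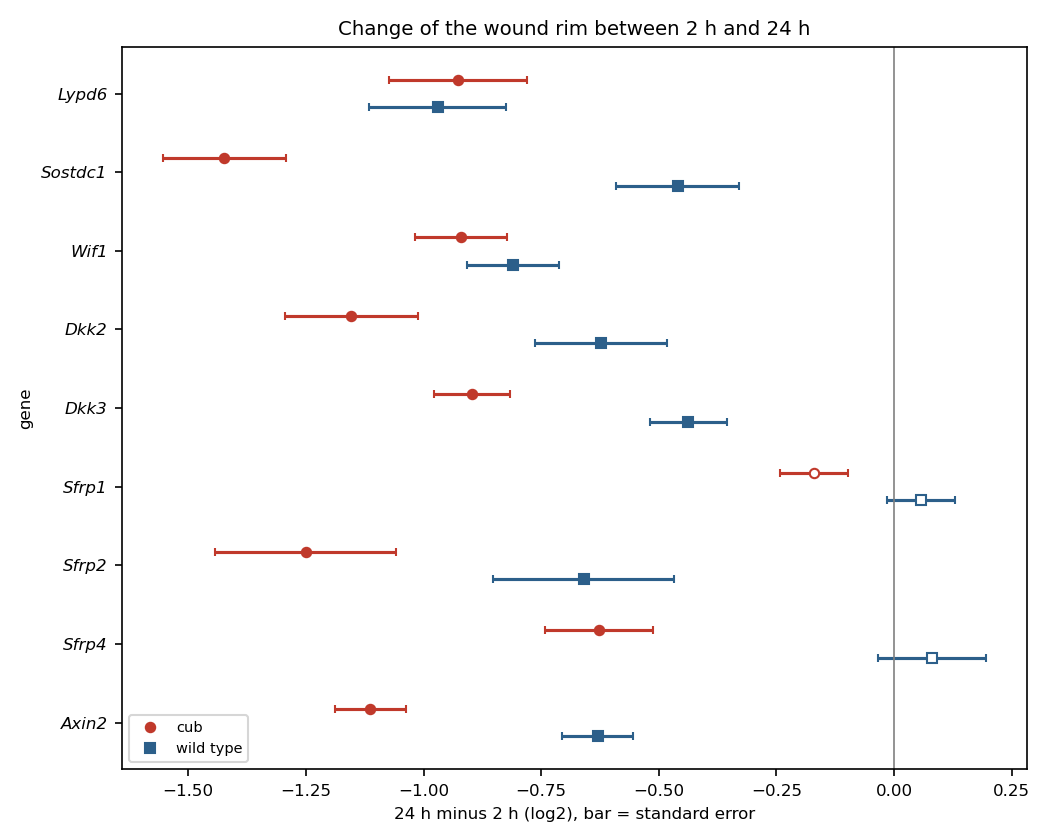
Log2 difference of the wound rim at 24 h from that at 2 h (x axis) for each gene (y axis), cub as circles above wild type as squares, with bars for 1 standard error. Filled symbols passed the test and open ones did not, and both symbols of Sfrp1 are open. Sostdc1 stands at −1.42 in cub and −0.46 in wild type. Its tests use the 24 h arrays whose genotype gap was known when the gene was chosen, so they are not independent of that choice.

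Other genes of the same pathways, taken from lists written from general knowledge with earlier results of these data known, were compared in the rims at 24 h and 2 h in the same way. Of all genes, 23.4% were lower at 24 h in cub and 20.4% in wild type, which the counts below are to be read against. Of 22 Wnt receptors and agonists, 15 were lower in cub, and 13 were lower and 1 higher in wild type. Fzd9, a Frizzled receptor, differed by −1.40 in cub and −1.67 in wild type. Lgr6, a receptor for R-spondins that marks follicle progenitors, differed by −1.19 in cub and −1.21 in wild type. Of 19 Wnt ligands, 6 were lower and 1 higher in cub, and 5 were lower and 2 higher in wild type, shares nearer those of all genes. Wnt7b, a ligand made by epidermis, differed by −0.88 in cub and −0.61 in wild type. Wnt16, another ligand, was higher at 24 h in wild type, by 0.69 (adjusted p = 4.2e-07).

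Among 11 further extracellular Wnt inhibitors, 7 were lower at 24 h than at 2 h in cub and 7 in wild type. Apcdd1, a membrane inhibitor that binds Wnts and LRP5, differed by −1.30 in cub and −0.95 in wild type. Frzb, another secreted Frizzled-like protein, differed by −0.88 in cub and −0.85 in wild type. Of 17 intracellular feedback and target genes of the Wnt pathway, 9 were lower in cub and 10 in wild type. Rnf43, a ubiquitin ligase that removes Frizzled receptors from the surface, differed by −0.78 in cub and −0.66 in wild type.

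On the BMP side, 7 of 12 ligands were lower at 24 h than at 2 h in cub and 7 in wild type, Bmp4 by −0.93 in cub and −0.85 in wild type. Of 8 BMP target genes, 5 were lower in cub and 7 in wild type. Id3, a repressor of differentiation factors that BMP signals induce, differed by −0.74 in cub and −0.95 in wild type. Of 13 further BMP inhibitors, 5 were lower and 1 higher in cub, and 4 were lower and 2 higher in wild type. Nbl1, which binds BMPs, differed by −1.16 in cub and −0.95 in wild type. Fst, which encodes the activin and BMP antagonist follistatin, went the other way, by 0.67 in cub and 0.62 in wild type. Of 11 BMP receptors and Smads, 6 were lower and 1 higher in cub, and 7 were lower and 1 higher in wild type. The list medians between 24 h and 2 h ran from −0.42 to 0.03 in cub, beside 0.01 for all genes, and from −0.41 to −0.11 in wild type, beside −0.02.

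**Figure D4:**
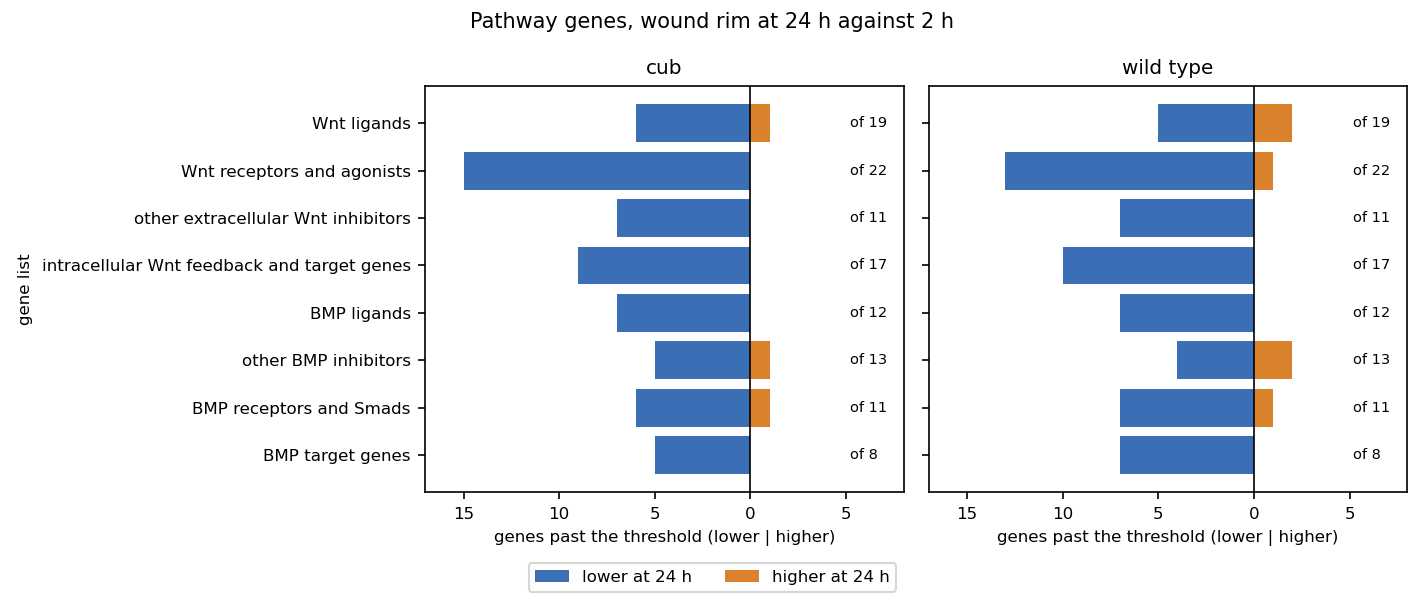
Number of genes in each of 8 pathway lists (y axis) that were lower (bars to the left) or higher (bars to the right) in the wound rim at 24 h than at 2 h (x axis, counts past the threshold), cub in the left panel and wild type in the right, with the number tested at the right. The longest bars are those of the Wnt receptors and agonists, with 15 of 22 lower in cub and 13 of 22 lower in wild type.

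Between the genotypes at 24 h, 1133 of all 19938 genes were called and 3.44% were lower in cub, beside the following counts in the lists. Of 22 Wnt receptors and agonists, 3 were lower and 1 higher in cub: Fzd3 differed by −0.57 (adjusted p = 0.00293), Lgr4 by −0.47 (adjusted p = 0.00426) and Fzd4 by 0.50 (adjusted p = 0.00968). Of 19 Wnt ligands, Wnt4 (−0.37, adjusted p = 0.0134) and Wnt16 (−0.29, adjusted p = 0.0344) were lower in cub. Znrf3, a relative of Rnf43 with the same task, was lower (−0.49, adjusted p = 0.000949), and Twist2, a dermal transcription factor, was higher (0.41, adjusted p = 0.0285), out of 17 feedback and target genes. Bmp2 was the BMP ligand called, of 12, with a difference of −0.54 (adjusted p = 0.00936). Twsg1, an extracellular binder of BMPs, was lower (−0.24, adjusted p = 0.0143) among 13 further BMP inhibitors. Limma called none of the 11 further Wnt inhibitors, 11 BMP receptors and Smads or 8 BMP target genes, of which 3, 2 and 0 had an unadjusted p below 0.05. For the change from 0 h to 24 h, Lgr5 (−0.62, adjusted p = 0.0335), an R-spondin receptor of follicle stem cells, and Apcdd1 (−0.48, adjusted p = 0.0431) were called different between the genotypes. Of all genes, 0.747% were called lower in this interaction. Whether the Lgr5 and Apcdd1 calls hold under the alternatives was not examined.

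Of the 113 pathway genes matched, those called between cub and wild type at 2 h were all higher in cub. They were Wnt5a (0.43, adjusted p = 0.0405), Twist2 (0.56, adjusted p = 0.00362) and Fstl1 (0.67, adjusted p = 3.18e-05). Over all genes 4.41% were called at that time, a share that these calls did not exceed. Wnt5a is a ligand of the beta-catenin-independent Wnt branch, and Fstl1 encodes a secreted protein of mesenchymal cells that binds BMPs.

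Markers of several cell types moved beside these genes. Of all 19938 genes, 765 were called higher in cub at 2 h and 447 at 24 h, which the marker counts are to be read against. At 2 h the mean log2 value of 10 dermal fibroblast markers was 10.75 to 10.86 on cub arrays and 10.19 to 10.43 on wild-type arrays, and 8 of the 10 were higher in cub. This stood beside the higher Dkk2 and Sfrp4 at 2 h, and its part in them was not tested. The fibroblast mean was already apart at 0 h, 10.49 to 10.61 in cub and 10.28 to 10.41 in wild type. At 15 min it overlapped, 10.47 to 10.63 in cub and 10.45 to 10.56 in wild type. At 24 h the same mean was 10.30 to 10.43 in cub and no higher than 10.16 in wild type, with 5 of 10 higher in cub, while Dkk2 and Sfrp4 then overlapped between the genotypes. Of 6 melanocyte markers, 4 were higher in cub at 2 h, with a mean of 7.59 to 8.06 in cub and 6.97 to 7.28 in wild type. Of 8 macrophage markers, 6 were higher in cub at 2 h, with a mean of 9.10 to 9.34 in cub and 8.27 to 8.90 in wild type. Of 8 neutrophil markers, 4 were higher in cub at 2 h. Of 10 keratinocyte markers, 3 were higher, with a mean of 11.80 to 11.87 in cub and 11.60 to 11.71 in wild type. No hair follicle marker was called at 2 h, though their mean was 6.84 to 6.94 in cub and 6.64 to 6.75 in wild type. At 15 min 5 of 12 were higher in cub, with a mean of 7.26 to 7.36 in cub and 6.63 to 6.75 in wild type, and at 0 h the means overlapped. The part of these markers in the members' differences was not tested.

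Beside the lower Sostdc1, Dkk3 and Axin2 at 24 h, the basal and bulge keratin Krt15 differed by −1.08 in cub (adjusted p = 1.7e-05). Krt15 was the sole lower call among 10 keratinocyte markers. Gata3, a transcription factor of the inner root sheath, differed by −0.63 (adjusted p = 1.92e-05), the sole call among 12 hair follicle markers. The mean of those 12 markers was 6.40 to 6.58 in cub and 6.50 to 6.63 in wild type. Of 8 sebaceous gland markers 3 were lower in cub at 24 h, their mean being 9.14 to 9.18 in cub and 9.30 to 9.33 in wild type. Of 10 keratinocyte markers 3 were higher and 1 lower, with a mean of 11.64 to 11.71 in cub and 11.52 to 11.60 in wild type. Of all 19938 genes, 447 were higher and 686 lower in cub at this time.

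The drop of the members between 2 h and 24 h came with a rise of neutrophil markers, of which 8 of 8 were higher at 24 h in cub and 7 of 8 in wild type. Their mean was 9.94 to 10.42 at 24 h and 7.64 to 7.93 at 2 h in cub rims. In wild-type rims it was 9.57 to 9.95 at 24 h and 6.94 to 7.45 at 2 h. Fibroblast markers were lower at 24 h for 9 of 10 in cub and 6 of 10 in wild type, with 1 higher in each, and hair follicle markers for 6 of 12 in cub and 3 of 12 in wild type. Macrophage markers were higher at 24 h for 5 of 8 in cub, with 2 lower, and for 5 of 8 in wild type, with 0 lower. Of 10 keratinocyte markers, 3 were higher and 4 lower in cub, and 4 were higher and 4 lower in wild type. Sebaceous gland markers were lower for 7 of 8 in cub and 5 of 8 in wild type, cartilage markers for 5 of 10 in cub and 9 of 10 in wild type, and skeletal muscle markers for 5 of 8 in cub and 8 of 8 in wild type. Melanocyte markers were lower for 6 of 6 in cub and 0 of 6 in wild type. Adipocyte markers were lower for 0 of 7 in cub and 6 of 7 in wild type. Against 0 h, however, 4 of 7 were already lower at 2 h in cub and 0 of 7 in wild type. At 24 h 7 of 7 were lower than at 0 h in cub and 6 of 7 in wild type. Of all 19938 genes, 3755 were higher and 4657 lower at 24 h than at 2 h in cub, and 4209 were higher and 4075 lower in wild type. The part of these markers in the members' changes was not tested.

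The genes whose values ran most alike to each member's, by Pearson's r over the 23 arrays, are given as a description, since all arrays share the time course and the genotypes. Closest to Lypd6 were Krt2 (r = 0.913), a keratin of the upper epidermis, Hsd3b6 (0.912) and Slc6a2 (0.911). Closest to Sostdc1 was Gata3 (0.969), and to Dkk3 Dapl1 and Krt15 (0.965 each). Axin2 ran closest to Fam83f and Ift172 (0.983 each). Wif1 ran closest to Cpe (0.986), a prohormone-processing carboxypeptidase, and to Corin (0.98), a protease of the dermal papilla.

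Dkk2 was closest to Otop3 (0.949) and Man2b2 (0.947), and Sfrp2 to Epha3 (0.942) and Cilp (0.933), a protein of cartilage matrix. Sfrp4 was closest to Col6a3 (0.876), a chain of collagen VI, and Sfrp1 to Celsr2 (0.891), a cadherin of planar cell polarity. Between members the highest r was 0.936, shared by the pairs Sostdc1 with Axin2, Wif1 with Dkk3 and Dkk3 with Axin2. The lowest was −0.373, between Sfrp1 and Sfrp4.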

How the data were processed

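The 23 arrays held ear pinna RNA. The authors deposited log2 values; the submitters' processing notes name RMA and Affymetrix Expression Console 1.1, and neither the annotation release nor the genome build is given in the sources used here. The deposited table has 35556 entries, with values from 2.92 to 13.84: 21789 carry 1 gene symbol, 1621 carry several and 12146 are not named here. Only entries with 1 symbol were used, and for 999 genes with more than 1 entry the one with the highest mean was taken, which left 19938 genes. Names and gene coordinates come from the RefSeq table of GRCm38.p6, matched for 21698 entries.

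The model (limma 3.58.1, R 4.3.3) had 1 mean for each of the 8 groups over all arrays (15 residual and 5.61 prior degrees of freedom). The 15 comparisons were two-sided and adjusted by Benjamini-Hochberg within each, at a threshold of 0.05. The number of arrays limits the precision. P values cover the spread between arrays that the labels call biological replicates.

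The 9 members, the 8 pathway lists and the 10 marker lists were chosen with earlier results of these data known. Of 203 list genes, 200 were matched, and the others were not analysed here. For each list and comparison, the genes named come from the 3 with the largest differences past the threshold, and for each member the 3 genes with the highest r were computed. The code was tested on simulated data. Alternatives were median-centring, quantile normalization, a filter on dim genes (13741 kept, with at least 1 group mean of 6 or more), every named entry, the replicate block, trend and robust moderation, array weights, only the arrays compared, and each array left out in turn. The authors' test, R/maanova, was not run.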

Additional observations from a re-analysis of the deposited data

Results flagged for a closer look

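In 2 members the change from 0 h to 24 h differed between the genotypes by the interaction term of the limma fit. For Sostdc1 the interaction was −1.03 ± 0.18, with 24 h below 0 h on every array of both genotypes. It contains the difference at 24 h that was known when the gene was chosen, and is given without a p. For Axin2 the interaction was −0.46 ± 0.11 (adjusted p = 0.0409), with lower values at 24 h than at 0 h on every array of both genotypes. The Axin2 call was lost in 17 of 31 alternatives, with an adjusted p of up to 0.132.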

How the results depend on the processing

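Over all members, comparisons and alternatives, 4108 values stayed on their side of the threshold, 41 lost the call and 27 gained one. No called value changed sign, while some values that were not called did, such as Wif1 at 15 min against 0 h in cub (−0.36 to 0.05). With array weights the members called between the genotypes at 0 h were 2, those at 2 h against 0 h were 4 in cub and 2 in wild type, and those of the 24 h interaction were 4. With only the arrays compared, 2 members were called between the genotypes at 0 h, 2 at 2 h, 2 at 2 h against 0 h in wild type, and 0 in the 24 h interaction, while for the average over the 4 times that fit already uses all arrays. The cause was not tested. Leaving out 1 array at a time, the counts ranged from 2 to 4 between the genotypes at 2 h and from 4 to 5 at 24 h, from 1 to 3 at 2 h against 0 h in cub and from 1 to 2 in wild type, and from 1 to 2 in the 24 h interaction. The counts at 24 h against 2 h ranged from 8 to 9 in cub and from 6 to 7 in wild type.

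Over all genes, median-centring gave 1155 calls between the genotypes at 24 h, 599 of them higher in cub, against 1133 calls with 447 higher without it. With only the arrays compared, 258 genes were called at 24 h, 67 at 15 min and 514 at 0 h, against 1133, 688 and 1047 over all arrays. Array weights gave 1804 calls at 0 h, 218 at 15 min and 1590 at 2 h, against 1047, 688 and 880.

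With the replicate block the counts of members were 1, 1, 4 and 5 between the genotypes at 0 h, 15 min, 2 h and 24 h, and 2 in the 24 h interaction, and no count of members changed under it. Deviations of arrays with the same number correlated between −0.296 and 0.258, not over 0.1 for every pair, so the numbers were not taken to pair the arrays. That 12 of 22 arrays correlated best with one of their own number is a hint from the data, not the design.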

Other observations

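Arrays of the cub rims at 24 h differed in level across the members. Replicate 2 was the highest of its group for 7 of the 9 genes and replicate 3 the lowest for 7. At 2 h, cub replicate 1 was the highest of its group for 8 of the 9 genes. Such differences were not particular to these groups. In wild type at 15 min replicate 2 was the highest for 7 genes. In cub at 0 h replicate 1 was the highest for 6 and replicate 2 the lowest for 6. The same counts over all genes were not made.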
